A study of Mus musculus with 15 samples.

Results

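The genes described here are those of the proteasome, together with the chaperones that build it, in femoral RNA of mice that had or had not flown in space and had or had not received a segmental bone defect. They were chosen by name, as every array probe whose accession maps to a mouse symbol of the series Psma, Psmb, Psmc, Psmd, Psme, Psmf or Psmg followed by a digit, and each gene is represented by the probe with the highest mean sample signal over the arrays. The rule found 50 genes with 62 probes, of 21154 genes with a symbol and 55681 probes on the array. All 15 mice were C57BL/6J males, 9 weeks old by the labels, and tissue was taken 24 to 28 days after launch, at an age of about 13 weeks, with 1 array each. G-Sham (4 mice) had sham surgery and stayed on the ground in flight hardware, FLT-Sham (4 mice) had sham surgery and flew to the International Space Station, G-Surgery (4 mice) received the defect and stayed on the ground in flight hardware, and FLT-Surgery (3 mice) received the defect and then flew. The defect of both Surgery groups held a synthetic graft wrapped in a saline-soaked collagen sponge, and the midshaft around it was taken as callus, while the Sham groups contributed the same stretch of femur without a defect, although all are labelled callus. The replicate numbers, in the order used for every list of values below, are 1, 3, 4 and 5 for G-Sham, 4, 6, 8 and 9 for FLT-Sham, 1, 3, 4 and 5 for G-Surgery and 1, 3 and 5 for FLT-Surgery.

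The proteasome degrades proteins that carry a ubiquitin chain. Its 20S core is a barrel of alpha rings, which gate the entrance, and beta rings, which hold the proteolytic sites, and the 19S cap has a ring of ATPases that unfold the substrate and a set of other subunits that bind and remove ubiquitin. Interferon brings in alternative catalytic subunits, Psmb8, Psmb9 and Psmb10, and the PA28 activator of Psme1 and Psme2, and this immunoproteasome produces peptides for MHC class I. In skeletal muscle the proteasome carries out much of the protein loss of atrophy, and in bone it takes part in the differentiation of osteoblasts and osteoclasts.

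Every value is a log2 ratio of the sample RNA (Cy5) to a common reference RNA pooled from mouse cell lines (Cy3) on the same array, so that 0 is equality with the reference and a difference of 1 between groups is a doubling. A ratio compares a gene with itself in the reference and is no measure of which gene has more transcript. Of the 50 genes, 28 had a sample signal well above background on all 15 arrays, 44 on at least 3 arrays and 4 on none (Psma8, Psmb11, Psmc3ip and Psmf1). Psmb2, a structural beta subunit, and Psmd14, the deubiquitinase of the 19S cap, were above background on 2 arrays each and entered no test. No member spot was marked as an outlier and none was saturated. Psme2 had no matched probe. Psme2b, a near-identical copy of it, had 3, and whether these probes read Psme2 as well is uncertain.

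The arrays differed in signal. Between 22.4% and 38.5% of all probes were above background in Cy5, and of the 50 members 29 to 46 were. FLT-Sham replicate 8 stood apart from its group with 26.6% of probes above background, while the other FLT-Sham arrays had 34.9% to 38.5%, and G-Sham replicate 1 had 23.1%. The authors describe the RNA as sub-optimal in quality, though comparable between flight and ground, and say that a freeze-thaw cycle may have lowered it. The part of RNA quality in these signals was not tested. The arrays lay on 3 slides, slide 3 holding only G-Sham replicate 4. Skeletal muscle transcripts ran high in all groups, the median log2 ratio of 8 muscle markers lying between 4.96 and 9.05 in G-Sham, 6.12 and 8.96 in FLT-Sham, 5.58 and 8.07 in G-Surgery and 2.78 and 7.73 in FLT-Surgery. Of 9 osteoblast and osteocyte markers, Dmp1, Phex, Sost and Sp7 were above background on no array. Fewer cells of a type and less RNA per cell cannot be told apart in such bulk RNA.

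**Figure D1:**
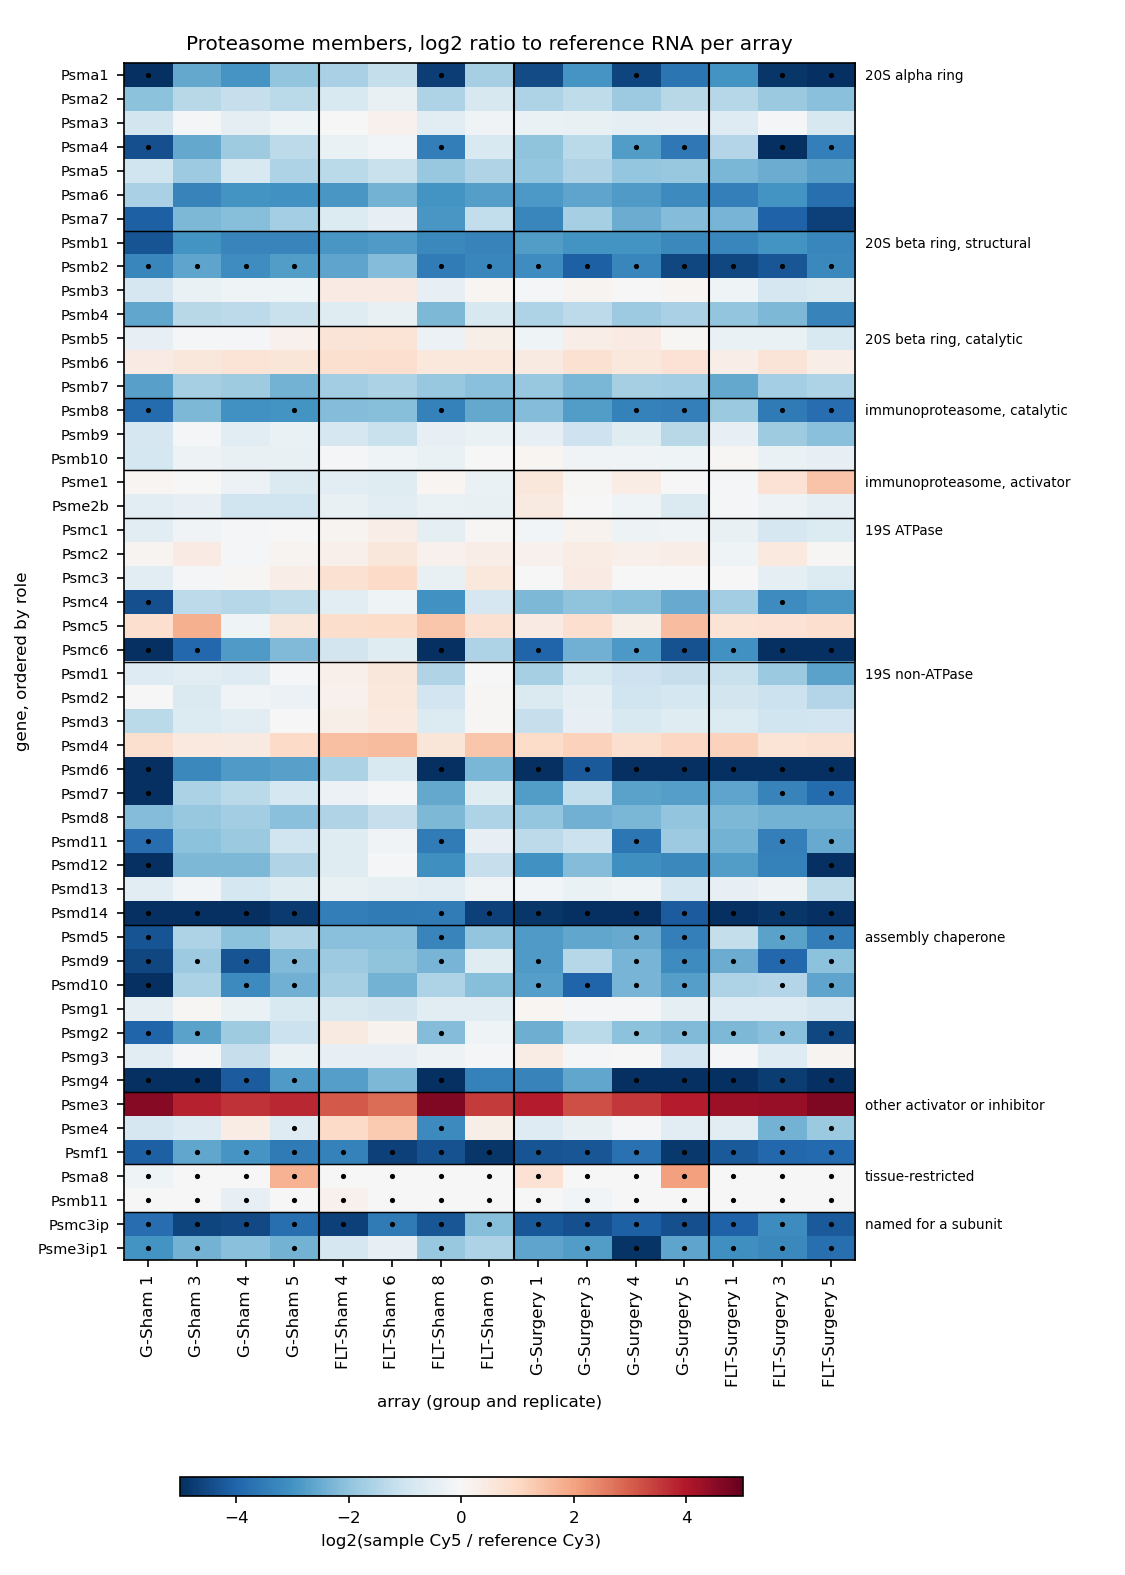
Log2 ratio of sample to reference RNA for the 50 proteasome genes (rows, by role) on the 15 arrays (columns, by group). Red is above and blue below the reference, colours stop at 5 and -5, and a black dot marks a gene not well above background on that array. Psme3 is red on all 15 arrays, and dots are fewest on FLT-Sham replicates 4 and 6 (46 members above background) and most frequent on G-Sham replicate 1 and FLT-Surgery replicates 3 and 5 (29).

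The log2 ratio averaged over all 15 arrays had a median of -1.67 over the 50 members. Over the 28 members above background on every array it was -0.43, beside 0.26 over the 4512 genes of the whole array that met the same condition. These 28 members also varied somewhat less between arrays, with a median SD of 0.41 beside 0.52. By role, the median of the mean log2 ratios was -2.34 for the 7 alpha subunits, -2.40 for the 4 structural beta subunits, -0.071 for the 6 ATPases, -1.97 for the 11 other 19S subunits and -2.49 for the 7 assembly chaperones.

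The 3 constitutive catalytic subunits had different ratios to the reference, and none had an unadjusted p of at most 0.05 in a comparison of 2 groups. Psmb6, which carries the caspase-like site, stood at 0.42, 0.58, 0.68 and 0.59 in G-Sham, 0.80, 0.86, 0.51 and 0.52 in FLT-Sham, 0.45, 0.78, 0.51 and 0.73 in G-Surgery, and 0.35, 0.65 and 0.35 in FLT-Surgery. It was above the reference on 15 of 15 arrays, and the 4 groups overlapped. Psmb5, which carries the chymotrypsin-like site, stood at -0.39, -0.042, -0.072 and 0.20 in G-Sham, 0.63, 0.68, -0.31 and 0.29 in FLT-Sham, -0.21, 0.33, 0.40 and 0.074 in G-Surgery, and -0.33, -0.34 and -0.75 in FLT-Surgery. All 3 FLT-Surgery arrays were below every G-Surgery and every FLT-Sham array, by -0.62 (SE 0.28, adjusted p = 0.311) and -0.80 (SE 0.39, adjusted p = 0.238). Psmb7, which carries the trypsin-like site, stood at -2.71, -1.67, -1.78 and -2.35 in G-Sham, -1.76, -1.58, -1.90 and -2.11 in FLT-Sham, -1.89, -2.30, -1.65 and -1.74 in G-Surgery, and -2.57, -1.69 and -1.53 in FLT-Surgery. Its groups overlapped throughout.

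The promoters of Psmb5, Psmb6 and the immunoproteasome genes Psme1 and Psmb9 are shown because factors that bind them are known to set proteasome expression. Nrf1 and Nrf2 act through antioxidant response elements, and interferon-induced factors through interferon-stimulated response elements. Windows around the transcription start were found in the RefSeq table (build GRCm38.p6) for 42 of the 50 members. The letters TGACNNNGC (the core of the antioxidant response element, either strand) occurred in 6 members, Psmb5, Psmb6, Psmc6, Psmd12, Psmd9 and Psme4. That is 14.3% of members, and it occurred in 3781 of 27025 genes. The core of the interferon-stimulated element (GAAA, any 2 bases, GAAA, either strand) occurred in 5 members, Psmb3, Psmd4, Psmd9, Psme1 and Psmg4, or 11.9% beside 3.99% of genes. CCAAT, either strand, occurred in 16 members, or 38.1% beside 41.1%. The 4 windows below, each 5′ to 3′ on the gene's strand, hold 1 match each, in capitals. It is TGACNNNGC for Psmb5 (chr14:54617946-54618245, minus strand) and Psmb6 (chr11:70525107-70525406, plus strand), the interferon-stimulated core for Psme1 (chr14:55578244-55578543, plus strand) and CCAAT for Psmb9 (chr17:34187281-34187580, minus strand). A match is a run of letters and no evidence of binding.
Psmb5: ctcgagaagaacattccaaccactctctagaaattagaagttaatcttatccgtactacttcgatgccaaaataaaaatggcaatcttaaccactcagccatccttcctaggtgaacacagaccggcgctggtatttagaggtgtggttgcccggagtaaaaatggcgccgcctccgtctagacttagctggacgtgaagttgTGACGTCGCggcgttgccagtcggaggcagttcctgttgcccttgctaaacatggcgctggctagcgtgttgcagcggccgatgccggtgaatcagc
Psmb6: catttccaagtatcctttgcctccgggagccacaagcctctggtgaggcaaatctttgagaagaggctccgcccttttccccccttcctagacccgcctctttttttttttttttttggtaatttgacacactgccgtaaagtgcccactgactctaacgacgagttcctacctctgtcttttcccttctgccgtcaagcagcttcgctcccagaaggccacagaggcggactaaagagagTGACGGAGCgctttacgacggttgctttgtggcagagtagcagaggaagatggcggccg
Psme1: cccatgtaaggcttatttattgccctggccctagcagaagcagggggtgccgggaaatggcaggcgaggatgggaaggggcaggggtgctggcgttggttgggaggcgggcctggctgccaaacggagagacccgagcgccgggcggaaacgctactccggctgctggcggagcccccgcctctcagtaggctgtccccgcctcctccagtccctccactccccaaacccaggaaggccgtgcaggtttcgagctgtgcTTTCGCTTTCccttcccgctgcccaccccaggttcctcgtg
Psmb9: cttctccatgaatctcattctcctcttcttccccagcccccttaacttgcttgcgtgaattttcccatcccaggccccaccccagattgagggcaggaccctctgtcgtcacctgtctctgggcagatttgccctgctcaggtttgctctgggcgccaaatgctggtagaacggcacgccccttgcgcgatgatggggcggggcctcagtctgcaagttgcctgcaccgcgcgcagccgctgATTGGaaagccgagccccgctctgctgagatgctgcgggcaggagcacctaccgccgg

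The immunoproteasome genes were measurable but gave no difference between groups at an unadjusted p of 0.05 in any of the 5 tests. Psmb9, which replaces Psmb6, stood at -0.83, -0.048, -0.55 and -0.34 in G-Sham, -0.86, -1.12, -0.41 and -0.34 in FLT-Sham, -0.42, -1.04, -0.60 and -1.40 in G-Surgery, and -0.40, -1.78 and -2.07 in FLT-Surgery. Its lowest values were 2 FLT-Surgery arrays, and the third lay within the other groups. Psmb10, which replaces Psmb7, stood at -0.89, -0.25, -0.38 and -0.37 in G-Sham, -0.080, -0.20, -0.34 and 0.031 in FLT-Sham, 0.094, -0.16, -0.19 and -0.22 in G-Surgery, and 0.058, -0.35 and -0.40 in FLT-Surgery. All G-Surgery values exceeded all G-Sham values, by 0.35 (SE 0.24, adjusted p = 0.599). Psmb8, which replaces Psmb5, was above background on 8 of 15 arrays and ranged from -3.84 to -1.85.

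Both PA28 genes had higher means in the Surgery groups than in the Sham groups, at p values above 0.05. Psme1, read by 10 spots per array, stood at 0.11, -0.024, -0.28 and -0.73 in G-Sham, -0.53, -0.61, 0.085 and -0.34 in FLT-Sham, 0.55, 0.071, 0.37 and 0.019 in G-Surgery, and -0.099, 0.72 and 1.43 in FLT-Surgery. The difference between FLT-Surgery and FLT-Sham was 1.03 (SE 0.45, adjusted p = 0.208), and 2 of 3 FLT-Surgery arrays exceeded every FLT-Sham array. Between G-Surgery and G-Sham the difference was 0.49 (SE 0.27, adjusted p = 0.534). Psme2b stood at -0.58, -0.42, -1.01 and -0.99 in G-Sham, -0.38, -0.51, -0.32 and -0.35 in FLT-Sham, 0.45, -0.023, -0.21 and -0.74 in G-Surgery, and -0.069, -0.25 and -0.45 in FLT-Surgery, with a log2 difference of 0.62 (SE 0.31, adjusted p = 0.501) between G-Surgery and G-Sham. In both cases the groups overlapped.

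**Figure D2:**
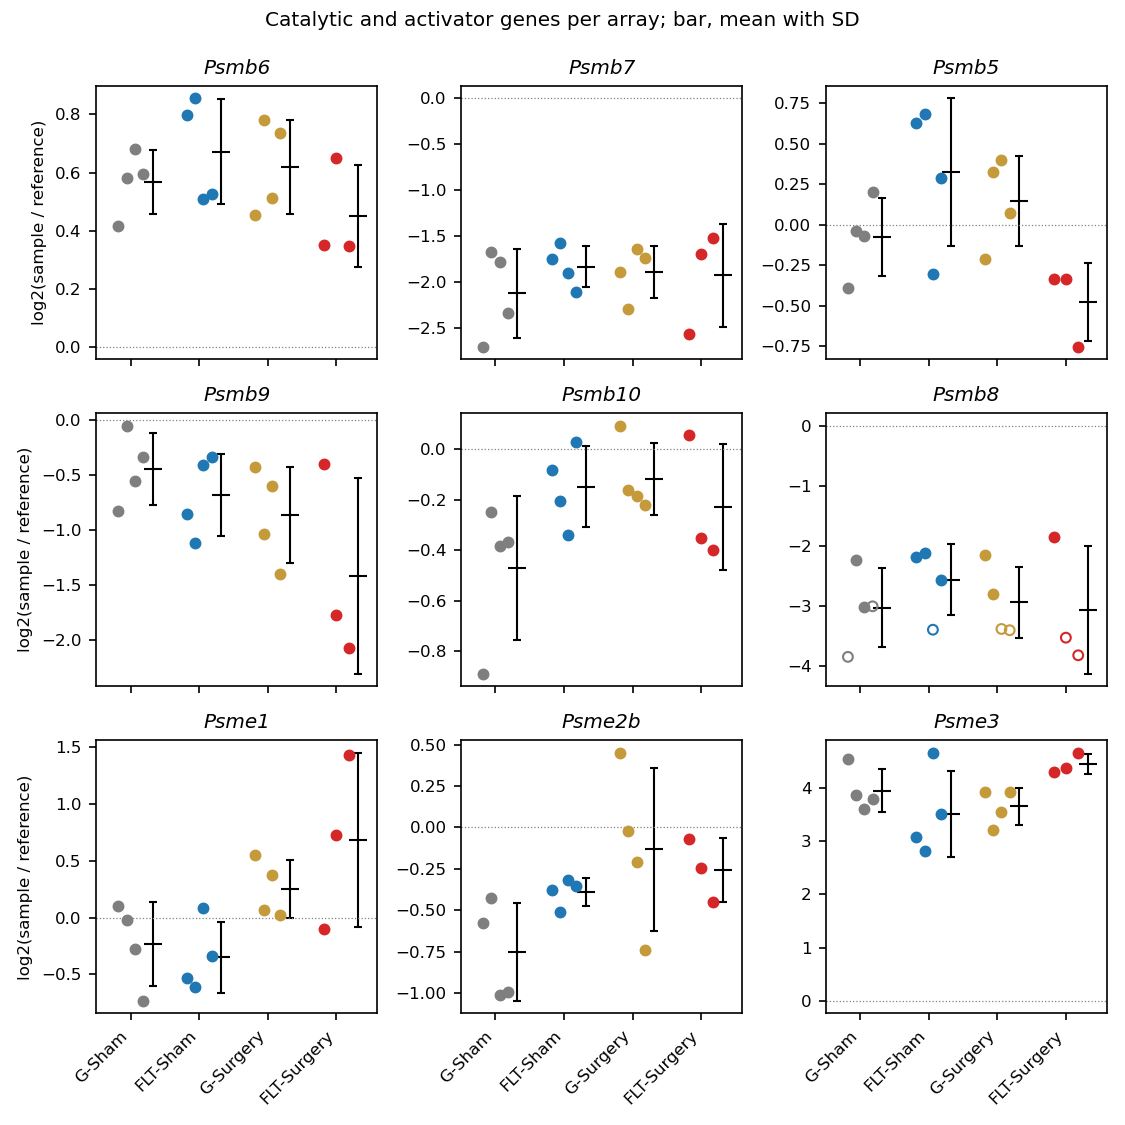
Log2 ratio of sample to reference for the constitutive catalytic genes (top row), the immunoproteasome catalytic genes (middle row) and the PA28 genes (bottom row) on each array, with a scale of its own in each panel. Filled points are above background, open points are not, the black bar is the group mean with its SD (n = 4, and 3 for FLT-Surgery), and the dotted line is equality with the reference. Psme3 lies between 2.81 and 4.65, far above the line, and the other panels show groups that mostly overlap.

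Psme3 encodes PA28γ, a nuclear activator that opens the core without ubiquitin, and its ratio was the highest among the members. It stood at 4.54, 3.86, 3.60 and 3.78 in G-Sham, 3.08, 2.81, 4.65 and 3.50 in FLT-Sham, 3.91, 3.21, 3.55 and 3.92 in G-Surgery, and 4.30, 4.36 and 4.65 in FLT-Surgery. The mean over 15 arrays was 3.85, and the next members were Psmd4, a ubiquitin receptor of the cap, at 0.95, Psmc5, an ATPase, at 0.81 and Psmb6 at 0.59. All 3 FLT-Surgery arrays were above all 4 G-Surgery arrays, and FLT-Sham held both its lowest value and, in replicate 8, one near the highest of FLT-Surgery. Psme4, the PA200 activator, had a mean of -0.58, and Psmf1, an inhibitor of the core, was above background on no array.

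Probes of the same gene could stand far apart in their ratio to the reference. The group mean of Psmb5 in G-Sham was -0.076 by the brighter and -1.90 by the dimmer probe, both above background on all 15 arrays. For Psmc1, an ATPase, the values were -0.20 and -2.20, for Psmc3, another ATPase, -0.053 and -1.50, and for Psmg1, a chaperone of the alpha ring, -0.37 and -3.69. The 2 probes of Psmc2 gave 0.15 and 0.18. In the comparison of FLT-Sham with G-Sham, probes of the same gene differed in sign for 2 of 8 genes (Psme2b and Psmg1). They did so for 2 of 6 genes (Psmc3 and Psme4) between G-Surgery and G-Sham, 1 of 8 (Psmg1) between FLT-Surgery and FLT-Sham, and 0 of 5 between FLT-Surgery and G-Surgery.

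**Figure D3:**
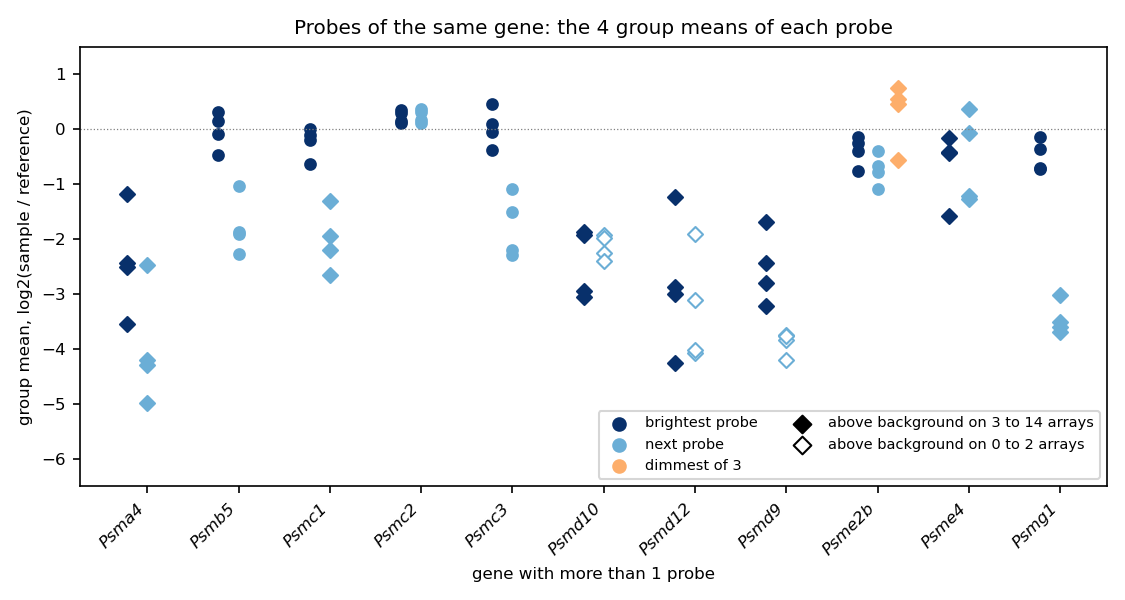
Group means of the log2 ratio (vertical axis, 4 groups as 4 points) for each probe of the 11 genes with several probes. Circles are probes above background on all 15 arrays and diamonds are probes dimmer on some, open where at most 2 arrays were above background. The probes of Psmc2 coincide, and those of Psmb5, Psmc1, Psmc3 and Psmg1 lie more than 1 log2 unit apart.

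The first comparison asked how femur without a defect differed after flight. Of 44 members tested, 38 were higher in FLT-Sham than in G-Sham (68.1% of genes) and 6 lower (31.9%), with a median log2 difference of 0.40 that was 0.22 after a further loess within each array (33 higher) and 0.089 after normexp background correction of the median signals followed by loess, called normexp below (26 higher). Over all 10307 genes tested the median was 0.38, and it was 0.028 after the further loess and -0.069 after normexp. Within slide 1, which held 1 array of each group, the member median was 0.55 (all genes 0.24), and within slide 2 (3 FLT-Sham and 2 G-Sham arrays) it was 0.48 (all genes 0.49). At an unadjusted p of 0.05, 2 members were higher (8.96% of all genes were) and 0 lower (1.11%), and 0 passed the cut-off of a 2-fold change at an unadjusted p of 0.01 (1.83% of genes higher and 0.136% lower). After normexp the counts at that p were 2 higher and 3 lower (4.02% and 6.79% of genes). No member passed an adjusted p of 0.05 in this or any other limma test. The 2 higher members were Psme3ip1 and Psmg2, and Psme3ip1 was the only tested member whose groups did not overlap (4.08% of genes did not, in this direction).

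Psme3ip1 is named for its binding to PA28γ and is no proteasome subunit. It stood at -2.98, -2.37, -2.10 and -2.38 in G-Sham, and -0.85, -0.42, -1.89 and -1.55 in FLT-Sham, so that all FLT-Sham arrays were higher, and the difference was 1.28 (SE 0.41, adjusted p = 0.491). This difference was 0.74 after a further loess and 0.049 after normexp. Psme3ip1 was above background on 1 G-Sham array and 3 FLT-Sham arrays, so most of its G-Sham values are limited by signal. Psmg2, a chaperone that pairs with Psmg1 on the alpha ring, stood at -4.01, -2.66, -1.79 and -1.05 in G-Sham, and 0.44, 0.16, -2.17 and -0.21 in FLT-Sham. Its difference was 1.94 (SE 0.77, adjusted p = 0.511), and FLT-Sham replicate 8 lay among the G-Sham arrays. The difference of Psme3ip1 was 1.52 between the 2 arrays of slide 1 and 1.39 within slide 2. Psmd9 and Psmg4, both chaperones, were above background on 3 FLT-Sham arrays and no G-Sham array, so that they were at least 2.10-fold (adjusted p = 0.517) and at least 1.55-fold (adjusted p = 0.61) higher in FLT-Sham. These bounds are of the Cy5 channel against the lowest signal above background. Both chaperones passed the filter through FLT-Sham alone, so their direction is no independent result.

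The 16 tested members that fell below background on some arrays had a median difference of 1.20, but a dim gene passes the filter through the group in which it is bright. The 28 members above background on every array had a median difference of 0.29, with 22 higher and 6 lower, beside 0.054 over the 4512 such genes of the array. Those genes had higher ratios to the reference (median 0.26 beside -0.43). With a mean ratio between -1 and 1 the member median was 0.27 (20 members) beside 0.30 (3785 genes), and between -3 and -1 it was 0.97 (18 members) beside 0.75 (3133 genes). All 6 ATPases had positive differences (0.20 to 1.36), also after a further loess and after normexp. All 10 other 19S subunits tested had positive differences (0.16 to 1.77), of which 9 were left after a further loess and 7 after normexp. Of the 7 assembly chaperones 6 were higher, but 4 after a further loess and 1 after normexp. Of the 5 immunoproteasome genes 3 were higher and 2 lower, with a median of 0.32 that was -0.27 after normexp. Without FLT-Sham replicate 8, 17 members were higher and 1 lower at an unadjusted p of 0.05, beside 29.7% and 6.89% of genes. Without G-Sham replicate 1 the counts were 1 and 0 (4.74% and 1.02% of genes), and they were likewise 1 and 0 without FLT-Sham replicate 4, 6 or 9 (2.39% to 3.20% of genes higher). Adipocyte markers (4 of 4) and erythroid markers (3 of 4 tested) were higher in FLT-Sham at that p, and their part in the proteasome differences was not tested.

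The second comparison asked how the defect site differed after flight. Of 37 members tested, 34 were lower in FLT-Surgery than in G-Surgery, with a median of -0.35, but 19 were lower after a further loess (median -0.016, all genes 0.14) and 16 after normexp (median 0.060, all genes 0.0043). Of 8481 genes, 70% were lower and 30% higher, with a median of -0.35. At an unadjusted p of 0.05, 4 members were lower (14.9% of genes) and 1 was higher (4.42%), and 0 passed the 2-fold cut-off (0.637% of genes higher and 2.63% lower). After a further loess 2 were higher and 0 lower (16.1% and 3.31% of genes), and after normexp 3 were higher and 4 lower (6.94% and 5.54%). The lower members were Psma5, Psmb3, Psmb4 and Psme4, and the higher was Psme3. The groups did not overlap for 6 lower members (9.99% of genes) and for Psme3 among the higher (5.2% of genes).

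Psmb4, a structural subunit that completes the beta ring, stood at -1.55, -1.29, -1.82 and -1.61 in G-Surgery, and -1.99, -2.24 and -3.35 in FLT-Surgery. All FLT-Surgery arrays were lower, by -0.96 (SE 0.37, adjusted p = 0.289). Psma5 of the alpha ring stood at -1.92, -1.50, -1.95 and -1.91 in G-Surgery, and -2.27, -2.49 and -2.72 in FLT-Surgery, again without overlap, with a log2 difference of -0.67 (SE 0.26, adjusted p = 0.288), which came to 0.060 after normexp. Psmb3 of the beta ring stood at -0.055, 0.15, 0.012 and 0.11 in G-Surgery, and -0.21, -0.86 and -0.70 in FLT-Surgery, with a log2 difference of -0.65 (SE 0.26, adjusted p = 0.292). The lowest values of all 3 genes fell on FLT-Surgery replicates 3 and 5.

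Psme4 stood at -0.65, -0.37, -0.072 and -0.58 in G-Surgery, and -0.51, -2.35 and -1.86 in FLT-Surgery, and FLT-Surgery replicate 1 lay among the G-Surgery arrays. Its difference was -1.16 (SE 0.45, adjusted p = 0.288). Psme3 differed by 0.79 (SE 0.28, adjusted p = 0.283) in the other direction. Its difference was 0.72 within slide 1 and 1.09 within slide 2, and it was 1.04 after a further loess and 0.57 after normexp. Psme3 was not alone in this. Over the 791 genes whose mean log2 ratio was above 3, as that of Psme3 was, the median difference was 0.46 and 69.7% were higher, whereas over the 2154 genes between -3 and -1 the median was -0.60 and 14.2% were higher.

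With the slide as a block, 9 of 37 members were lower and 1 higher at an unadjusted p of 0.05, beside 23.8% and 5.05% of genes, and 2 were lower past the cut-off. Within slides the direction was the same, with a member median of -0.42 on slide 1 (2 FLT-Surgery and 3 G-Surgery arrays, all genes -0.36) and -0.27 on slide 2 (1 array of each, all genes -0.28). All 7 alpha subunits were lower, but 6 after a further loess and 2 after normexp. All 9 other 19S subunits tested were lower, but 5 after a further loess and 4 after normexp, and all 5 ATPases tested were lower, but 2 after a further loess and 3 after normexp. Of the immunoproteasome genes, Psme1 was higher (0.43) and the other 4 lower, whereas 4 were higher both after a further loess and after normexp. Without FLT-Surgery replicate 1, 12 members were lower and 2 higher at an unadjusted p of 0.05, beside 29.2% and 5.62% of genes. Without FLT-Surgery replicate 5 or without G-Surgery replicate 3 there were 0 in either direction by limma (7.30% and 6.68% of genes lower, 2.34% and 2.72% higher). Without FLT-Surgery replicate 3 or G-Surgery replicate 5, 1 was lower (9.66% and 15% of genes) and 1 higher (4.06% and 5.59%). Without G-Surgery replicate 4, 2 were lower (8.14%) and 0 higher (2.53%). Neutrophil markers (4 of 7 tested) and cartilage markers (3 of 3) were lower in FLT-Surgery at that p, and their part in the proteasome differences was not tested.

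With the deposited log ratios the third comparison, of surgery with sham on the ground, had the member median nearest to 0, but not after a further loess or normexp. Of 40 members tested 26 were higher and 14 lower in G-Surgery, with a median of 0.084 beside 0.17 over 9061 genes, of which 62.8% were higher. The median was negative after a further loess (-0.074, 15 of 40 higher), after normexp (-0.073, 16 of 40 higher) and without G-Sham replicate 1 (-0.15). Within slide 1 it was -0.15 (all genes -0.15) and within slide 2 it was 0.40 (all genes 0.44). At an unadjusted p of 0.05, 1 member was lower (2.2% of genes) and 0 were higher (9.68%), and 0 passed the cut-off by limma (2.68% of genes higher and 0.452% lower). The groups did not overlap for 2 higher members, Psmb3 and Psmb10 (6.68% of genes), and 1 lower (1.34%). The lower member was Psmd1, the large scaffold of the 19S base, at -0.66, -0.56, -0.65 and -0.096 in G-Sham, and -1.64, -0.78, -1.02 and -1.17 in G-Surgery, with every G-Surgery array lower and a log2 difference of -0.66 (SE 0.28, adjusted p = 0.438). The other large scaffold, Psmd2, differed by -0.46 (SE 0.25, adjusted p = 0.523). Without G-Sham replicate 1, 7 members were lower (8.57% of genes) and 0 higher, and 2 were lower without G-Sham replicate 3 (1.5%) or without G-Surgery replicate 3 (2.11%). With the slide as a block there were 0 at that p by limma. There were also 0 in either direction without G-Sham replicate 4 or 5 or G-Surgery replicate 1 or 4 by limma. Without G-Surgery replicate 5, and with all 15 arrays in the fit, 1 member was higher (11.6% and 8.94% of genes) and 0 lower (2.60% and 1.78%). After normexp 2 were higher and 5 lower (6.16% and 6.46%). Psmd1 did not reach that p after normexp, with Cy5 alone, with either block, with all 15 arrays in the fit, or without G-Sham replicate 3, 4 or 5 or G-Surgery replicate 1, 4 or 5. Monocyte and macrophage markers were higher in G-Surgery at that p for 5 of 6 genes, and their part in the proteasome differences was not tested. Psmd6, a subunit of the 19S lid, was above background on 3 G-Sham arrays and no G-Surgery array, and was at least 2.58-fold lower in G-Surgery (adjusted p = 0.479). It passed the filter through G-Sham alone, so its direction is no independent result.

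The fourth comparison, of surgery with sham in flight, had the member median farthest from 0 with the deposited log ratios and after a further loess. After normexp its median was the nearest to 0. Of 44 members 38 were lower in FLT-Surgery than in FLT-Sham, with a median of -0.77, but 29 were lower after a further loess (median -0.34, all genes 0.11) and 23 after normexp (median -0.013, all genes 0.094). Of 10101 genes, 66.5% were lower, with a median of -0.55. At an unadjusted p of 0.05, 12 members were lower (25.8% of genes) and 0 higher (2.6%), and 2 were lower past the 2-fold cut-off (7.98% of genes). The groups did not overlap for 5 lower members (13.2% of genes) and 0 higher (3.25%). The direction of the calls depended on the scaling, with 7 lower and 1 higher after a further loess (12.9% and 13% of genes) and 5 lower and 8 higher after normexp (14.2% of genes higher and a smaller share lower). This comparison shares its FLT-Surgery arrays with the second and its FLT-Sham arrays with the first.

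The members past the cut-off were Psmd7 and Psme3ip1, and neither was past it after a further loess or normexp. Psmd7, the partner of the deubiquitinase Psmd14 in the lid, stood at -0.31, -0.053, -2.55 and -0.62 in FLT-Sham, and -2.65, -3.32 and -3.83 in FLT-Surgery. All FLT-Surgery arrays were lower, though FLT-Sham replicate 8 lay close to the highest of them, and the difference was -2.39 (SE 0.66, adjusted p = 0.145). Psmd7 was above background on only 1 FLT-Surgery array, so its difference is limited by signal. Psme3ip1 stood at -0.85, -0.42, -1.89 and -1.55 in FLT-Sham, and -3.07, -3.23 and -3.77 in FLT-Surgery. It was above background on no FLT-Surgery array and at least 3.21-fold lower (adjusted p = 0.131), and its measured means had the opposite order after normexp. It passed the filter through FLT-Sham alone.

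The other 10 members at an unadjusted p of 0.05 came from the alpha ring (Psma1, Psma5 and Psma7), the beta ring (Psmb4), the 19S cap (Psmd1, Psmd2, Psmd3, Psmd6 and Psmd12) and the chaperones (Psmg2). Psma5 stood at -1.34, -1.10, -1.90 and -1.50 in FLT-Sham, and -2.27, -2.49 and -2.72 in FLT-Surgery and differed by -1.03 (SE 0.35, adjusted p = 0.161) without overlap, but by 0.011 after normexp. Psmd3, a lid subunit, stood at 0.31, 0.49, -0.67 and 0.071 in FLT-Sham, and -0.69, -1.01 and -0.94 in FLT-Surgery and differed by -0.93 (SE 0.39, adjusted p = 0.202), also without overlap. Members not above background on any FLT-Surgery array gave bounds, Psmd6 being at least 6.73-fold (adjusted p = 0.151), Psmc6, an ATPase, at least 4.02-fold (adjusted p = 0.261), Psmg2 at least 3.58-fold (adjusted p = 0.158), Psmg4 at least 2.03-fold (adjusted p = 0.223) and Psmd9 at least 1.74-fold (adjusted p = 0.269) lower. These members passed the filter through FLT-Sham alone, so their direction is no independent result.

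All 10 tested 19S subunits other than the ATPases were lower (-3.35 to -0.27, the former that of Psmd6 and not above background in FLT-Surgery), but 9 after a further loess and 7 after normexp. All 6 ATPases were lower (-2.52 to -0.24, the former that of Psmc6 and not above background in FLT-Surgery), but 4 after a further loess and 5 after normexp, and all 7 alpha subunits were lower (-2.64 to -0.40), also after a further loess but 5 after normexp. The 28 members above background on every array had a median of -0.51 beside 0.0022 over the 4512 such genes, whose ratios to the reference were higher. With a mean ratio between -1 and 1 the member median was -0.40 beside -0.41 over genes, and between -3 and -1 it was -1.27 beside -1.16. Of the immunoproteasome genes, Psmb8, Psmb9 and Psmb10 were lower (-0.50, -0.74 and -0.081) and Psme1 and Psme2b higher (1.03 and 0.13), none at an unadjusted p of 0.05, and all 5 were higher after normexp. Within slide 1 the member median was -1.18 (all genes -0.92) and within slide 2 it was -0.42 (all genes -0.18). With the slide as a block 5 of 44 members were lower at that p (16.1% of genes) and 1 past the cut-off. Without FLT-Sham replicate 8, 24 members were lower and 2 higher, beside 40.2% and 11.6% of genes, and 17 were lower past the cut-off. The count was 3 without FLT-Surgery replicate 5 (12.6% of genes lower) and 7 without FLT-Surgery replicate 3 (15.3%), and without FLT-Sham replicate 4, 6 or 9 it was 4 each (12.4% to 14.2%). The median log2 ratio of 4 adipocyte markers lay between 3.33 and 5.49 in FLT-Sham and -0.21 and 1.09 in FLT-Surgery, and that of 4 erythroid markers between 4.30 and 7.79 and between 0.62 and 3.62. All 4 genes of each list tested, 5 of 8 skeletal muscle genes and 5 of 8 neutrophil genes were lower at an unadjusted p of 0.05, and their part in the proteasome differences was not tested.

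**Figure D4:**
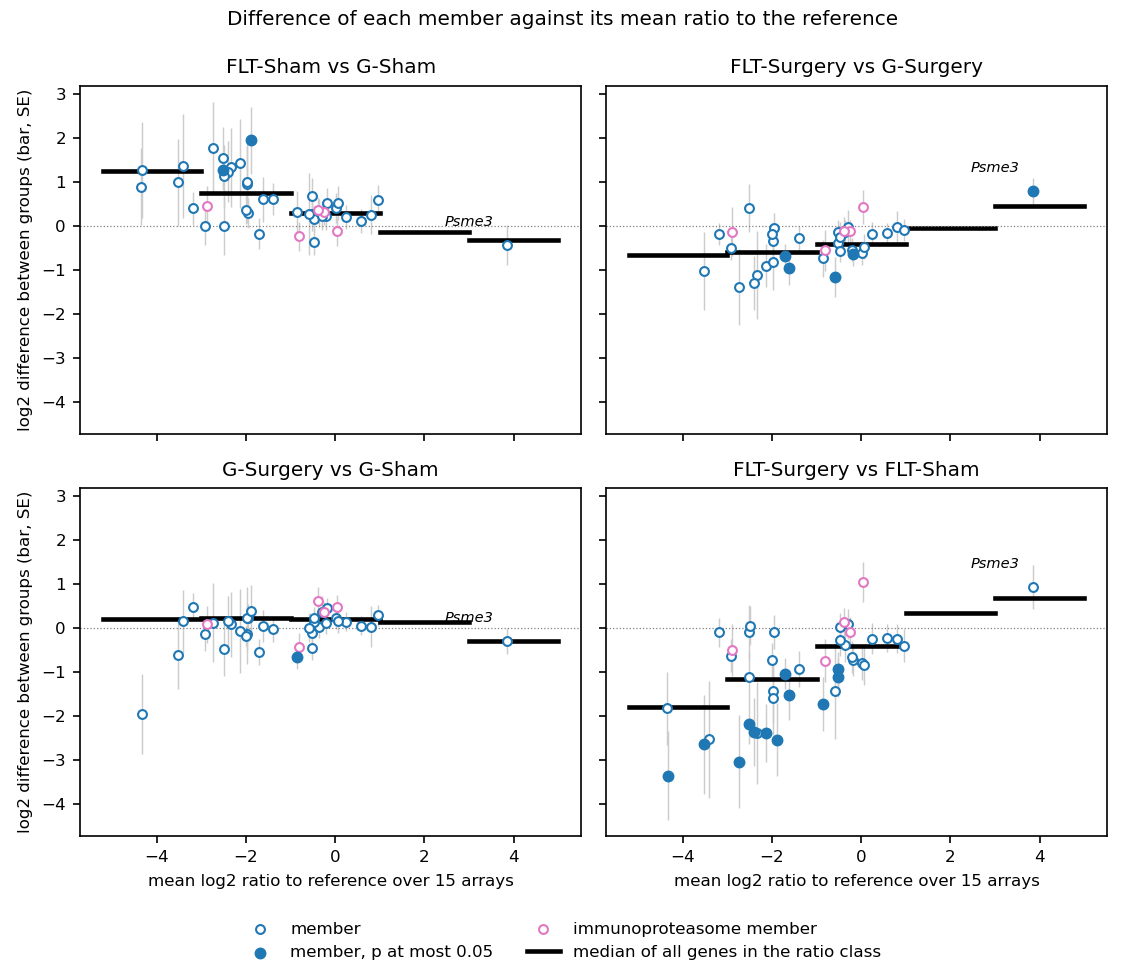
Log2 difference between groups (vertical axis, with SE) of each tested member against its mean log2 ratio to the reference over 15 arrays (horizontal axis) in the 4 comparisons. Filled points have an unadjusted p of at most 0.05, pink points are immunoproteasome genes and black bars are the medians of all genes in the same class of ratio. Psme3, at the right, lies on the same side of 0 as the median of its class, which was 0.46 in FLT-Surgery against G-Surgery. The directions are those of the deposited log ratios, and the member median turned positive after normexp in that comparison and negative after normexp or a further loess in G-Surgery against G-Sham.

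Whether flight acted differently on sham and surgery femur was tested as an interaction over all 15 arrays. Of 44 members 41 had a negative interaction (70% of 11092 genes) and 3 a positive one (30%), with a median of -0.72 for members and for all genes, but 28 were negative after a further loess and 22 after normexp. At an unadjusted p of 0.05, 5 members were negative (22.5% of genes) and 1 positive (2.32%), and 0 passed the 2-fold cut-off (6.61% of genes negative and 0.225% positive). They were Psmb3 at -1.17 (SE 0.41, adjusted p = 0.191), Psmg2 at -2.91 (SE 1.07, adjusted p = 0.199), Psma7, an alpha subunit, at -2.52 (SE 0.99, adjusted p = 0.211), Psmb5 at -1.02 (SE 0.43, adjusted p = 0.225) and Psmb4 at -1.56 (SE 0.68, adjusted p = 0.236). The positive one was Psme3 at 1.23 (SE 0.56, adjusted p = 0.253). Psmg2 was above background on no FLT-Surgery array, so its interaction rests on values limited by signal and its size is uncertain.

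Psmb3, of the beta ring, had the lowest p. Its G-Sham values were -0.83, -0.33, -0.22 and -0.21 and its FLT-Sham values 0.41, 0.39, -0.41 and 0.12, so that 3 of 4 FLT-Sham arrays were above all G-Sham arrays and replicate 8 was among them. At the defect all FLT-Surgery values were below all G-Surgery values. Psma7 stood at -4.09, -2.25, -2.14 and -1.70 in G-Sham, -0.70, -0.42, -2.92 and -1.23 in FLT-Sham, -3.26, -1.64, -2.46 and -2.17 in G-Surgery, and -2.33, -4.04 and -4.65 in FLT-Surgery, where FLT-Sham replicate 8 and G-Sham replicate 1 lay low. Without FLT-Sham replicate 8, 22 members were negative and 1 positive (35.6% and 7.54% of genes), and 10 were negative and 0 positive without FLT-Surgery replicate 1 (28.9% and 3.06%). In either direction 1 member was left without FLT-Surgery replicate 5 (13% of genes negative), and 3 were left (15.9% to 16.2%) without G-Sham replicate 1, FLT-Sham replicate 4, FLT-Sham replicate 6 or G-Surgery replicate 3. After normexp 9 members were positive and 5 negative at that p (12.7% and 7.72% of genes).

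The difference of a member went with its ratio to the reference. Over members, Spearman's rho between the mean ratio of the groups compared and the difference was -0.49 in FLT-Sham against G-Sham (44 members), 0.54 in FLT-Surgery against G-Surgery (37), 0.27 in G-Surgery against G-Sham (40) and 0.58 in FLT-Surgery against FLT-Sham (44). Over all genes tested the values were -0.36, 0.41, -0.13 and 0.45. These are descriptions across genes of the same arrays, which are not independent replicates. In FLT-Surgery against FLT-Sham, 18 members with a mean ratio between -3 and -1 had a median difference of -1.27 (3070 genes, -1.16), and 20 members between -1 and 1 had -0.40 (3714 genes, -0.41).

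Across the 15 arrays the members also moved with the share of probes above background. The median log2 ratio of the 16 dimmer members ranged from -4.47 (G-Sham replicate 1) to -0.51 (FLT-Sham replicate 6). Its Pearson's r with that share was 0.72 (permutation p = 0.00255, adjusted p = 0.0055) and Spearman's rho 0.71 (permutation p = 0.00413, adjusted p = 0.00961). The members' own detection is part of that share. For the 28 brighter members, whose median ranged from -0.83 (FLT-Surgery replicate 5) to -0.13 (FLT-Sham replicate 9), r was 0.61 (permutation p = 0.0168, adjusted p = 0.0168) and rho 0.65 (permutation p = 0.00991, adjusted p = 0.00991). For Psme3 r was -0.71 (permutation p = 0.00367, adjusted p = 0.0055) and rho -0.68 (permutation p = 0.00641, adjusted p = 0.00961). These 3 relations were the family computed, the tests were two-sided, and the groups were not removed from them. Without FLT-Sham replicates 4 and 6, the arrays with the most extreme share, r was 0.51, 0.58 and -0.51. Within the 7 arrays of slide 1 it was 0.74, 0.69 and -0.64 (exact permutation p = 0.0458, 0.0901 and 0.115), and within the 7 of slide 2 it was 0.78, 0.69 and -0.78 (exact permutation p = 0.0363, 0.0911 and 0.0399). The part of this share in the differences between groups was not tested.

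**Figure D5:**
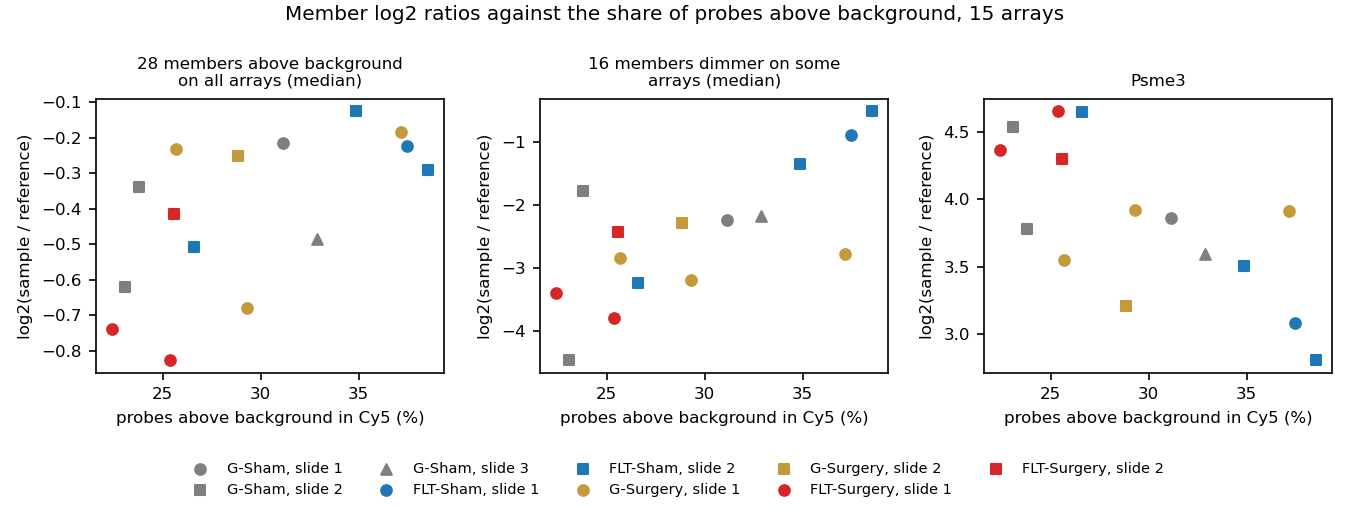
Median log2 ratio of the 28 brighter members (left) and of the 16 dimmer members (middle) and the log2 ratio of Psme3 (right) against the percentage of probes above background in Cy5, for each of the 15 arrays. Colours are groups and shapes are slides. Member medians are lower and Psme3 is higher on arrays with fewer probes above background, such as the FLT-Surgery arrays and FLT-Sham replicate 8 at 26.6%.

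Genes that work with the proteasome were read from lists. Of 21 associated factors, 16 were tested in FLT-Sham against G-Sham, where 15 were higher (13 after a further loess and 9 after normexp), 2 of them at an unadjusted p of 0.05. These were Rad23b, a shuttle for ubiquitinated proteins, and Ube3c, a ubiquitin ligase that binds the proteasome, which were above background on 3 FLT-Sham arrays and no G-Sham array and so at least 3.24-fold (adjusted p = 0.456) and at least 2.06-fold (adjusted p = 0.503) higher. Both passed the filter through FLT-Sham alone, so their direction is no independent result. The bounds hold for the scaled Cy5 channel, while after normexp the log2 differences were -0.038 and 0.11, neither at that p. Ube3c also missed that p after a further loess. In FLT-Surgery against FLT-Sham 15 of 16 were lower (11 after a further loess and 7 after normexp), 7 of them at that p, among them Zfand5 (-4.25), Adrm1, a ubiquitin receptor (-2.58), Sem1, a small lid subunit (-2.27), and Vcp, the segregase that hands over substrates (-2.09), of which Adrm1 did not reach it after a further loess or normexp. Zfand5 and Adrm1 were above background on 1 FLT-Surgery array each, and after normexp they differed by -1.20 and -0.049. Of the 7 genes, Uchl5, Rad23b and Ube3c were above background on no FLT-Surgery array. In FLT-Surgery against G-Surgery 13 of 14 factors were lower (9 after a further loess and 7 after normexp), 2 at that p, neither after a further loess or normexp. They were Ecpas at -1.68 and Uchl5, a deubiquitinase that was above background on no FLT-Surgery array and at least 2.37-fold lower. Uchl5 passed the filter through G-Surgery alone, and its log2 difference was 0.28 after normexp. In G-Surgery against G-Sham 8 of 14 were higher (5 after a further loess and 3 after normexp), 0 at that p by limma. The list medians were 0.77, -1.33, -0.61 and 0.053 in this order, beside the medians of all genes above.

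Of 4 genes that control proteasome transcription, Ddi2, the protease that activates Nrf1, was higher in G-Surgery than in G-Sham (0.85) and lower in FLT-Surgery than in G-Surgery (-0.92) at an unadjusted p of 0.05, in neither case after a further loess or normexp. Of 11 genes of MHC class I presentation and its interferon regulators, Nlrc5, the transactivator of class I genes, was above background on 3 FLT-Sham arrays and no G-Sham array and at least 1.69-fold higher (adjusted p = 0.514), but reached that p under none of the further loess, median centring, normexp and Cy5 alone. It passed the filter through FLT-Sham alone, and its log2 difference was 0.19 after normexp. Irf1 was higher in G-Surgery than in G-Sham (0.91), not after a further loess or with Cy5 alone. The immunoproteasome catalytic genes, which share that control, did not reach the threshold in either comparison. Of 6 ubiquitin ligases known from muscle, Trim63 was above background on no FLT-Surgery array. By the scaled Cy5 channel it was at least 14.03-fold lower than in FLT-Sham (adjusted p = 0.136) and at least 2.46-fold lower than in G-Surgery (adjusted p = 0.258). In both comparisons it passed the filter through the other group alone, and after normexp its log2 differences were smaller, at -2.57 and -0.36. Mul1 was also lower in FLT-Surgery in both comparisons (-1.55 and -1.55), but did not reach that p against FLT-Sham after a further loess.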

How the data were processed

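RNA of 15 mouse femora was labelled with Cy5 and hybridised with a Cy3 reference RNA on 2-colour Agilent arrays, without dye swaps. Per the labels, the authors extracted signals with Agilent Feature Extraction 12.0. The deposited log10 ratio is that of Cy5 over Cy3 after background subtraction and linear and lowess dye normalization, and it is exactly 0 for 15.9% to 32.3% of spots. The deposited intensity columns are linear, and the authors' series table held the same log10 ratios within 0.005.

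Log10 ratios were turned into log2 ratios here. Control spots were left out (59305 spots per array remained), outlier spots were set to missing and spots averaged per probe (55681 probes, 28026 with a symbol through RefSeq accessions). A probe was tested where Cy5 was well above background on at least 3 of the arrays compared. The 2 groups compared were fitted with limma 3.58.1 (R 4.3.3), with Benjamini-Hochberg adjustment over all probes. The interaction was fitted over all 15 arrays. Two-sided unadjusted p of 0.05 served for counts, and the cut-off was 2-fold with p of 0.01. The fit was tested on simulated data. Each array is 1 mouse, and precision is limited by how many arrays there are.

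Alternatives were a further loess, median centring, normexp with an offset of 50 on the median signals followed by loess (the mean Cy3 signal was not used here), Cy5 alone, the series table, other filters, all arrays in the fit, array weights, slide or replicate number as a block, the mean of all probes of a gene, and each array left out. Members named by rule were, per comparison and direction, up to 5 past the cut-off and up to 5 at p of 0.05 whose groups did not overlap, up to 5 with the lowest p of the interaction, and the catalytic and activator genes. Others were named after their values were seen. Members and lists were chosen with earlier results of these data known. Replicate numbers did not pair the groups.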

Additional observations from a re-analysis of the deposited data

Results flagged for a closer look

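Single arrays lay far from the other 3 of their group in 6 of 63 groups of 4 arrays examined over 21 measures, and chance alone gives about 1 in 20, or 3.15. Psmd7 was -5.38 in G-Sham replicate 1, where the nearest array was -1.60, and -1.22 in G-Surgery replicate 3, the highest of its group, where the nearest was -2.69. Psmb4 was -2.61 in G-Sham replicate 1 (nearest -1.38). Psma5 was -1.50 in G-Surgery replicate 3, the highest of its group (nearest -1.91). Psme3ip1 was -4.89 in G-Surgery replicate 4 (nearest -2.81). The median of the 28 brighter members was -0.68 in G-Surgery replicate 5 (nearest -0.25).

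The effect of flight differed between Surgery and Sham mice at an unadjusted p of 0.05 in the limma interaction test for 6 members, none of them past an adjusted p of 0.05. Of these 5 were negative (22.5% of genes) and 1 positive (2.32%), whereas after normexp 5 members were negative and 9 positive (7.72% and 12.7% of genes). The log2 interaction was -2.91 for Psmg2 (adjusted p = 0.199), -2.52 for Psma7 (adjusted p = 0.211), -1.56 for Psmb4 (adjusted p = 0.236), -1.17 for Psmb3 (adjusted p = 0.191), -1.02 for Psmb5 (adjusted p = 0.225) and 1.23 for Psme3 (adjusted p = 0.253). All 3 FLT-Surgery arrays lay below all G-Surgery arrays for Psmb3, Psmb4 and Psmb5 and above them for Psme3. Psmg2 was above background on no FLT-Surgery array, so its interaction rests on values limited by signal.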

How the results depend on the processing

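Beside the values of the report, the counts of members at an unadjusted p of 0.05 and past the 2-fold cut-off moved by more than 1.5 times as follows, and the cause was not tested. A further loess gave 1 member at that p, higher, in FLT-Sham against G-Sham (5.05% of genes), 2 higher in FLT-Surgery against G-Surgery (16.1%, 1 member past the cut-off), 2 lower (4.15%) in G-Surgery against G-Sham (median -0.074) and 0 past the cut-off in FLT-Surgery against FLT-Sham. Normexp followed by loess gave 5 in FLT-Sham against G-Sham (2 higher, 3 lower), 7 in G-Surgery against G-Sham (2 higher, 5 lower, median -0.073), 14 in the interaction (9 positive, 5 negative) and 0 past the cut-off in FLT-Surgery against FLT-Sham, where the median was -0.013, and a median of 0.060 in FLT-Surgery against G-Surgery. Under normexp the difference of Psma5 came to 0.060 in FLT-Surgery against G-Surgery and 0.011 in FLT-Surgery against FLT-Sham, and that of Psme3ip1 in the latter to 0.10. In FLT-Surgery against G-Surgery, median centring gave 3 (1 higher and 2 lower, beside 4.78% and 13.2% of genes), and Cy5 alone gave 1 higher (8.69% of genes), with 1 past the cut-off. Without a filter on dim probes the counts were 8 in FLT-Surgery against G-Surgery (7 lower, 7.61% of genes), 4 in G-Surgery against G-Sham (3 lower, 2.31%), 19 in FLT-Surgery against FLT-Sham (18 lower, 13%) and 12 in the interaction (10 negative, 13.6%), with 1 past the cut-off in FLT-Sham against G-Sham. With both channels above background on every array they were 0 in FLT-Sham against G-Sham by limma (4.82% of genes higher and 2.21% lower) and 8 of 28 in FLT-Surgery against G-Surgery (7 lower, 15% of genes). In G-Surgery against G-Sham they were 2 in that setting (1 higher and 1 lower, beside 12.9% and 3.06% of genes). With all 15 arrays in the fit they were 4 higher in FLT-Sham against G-Sham (11.6% of genes), 3 lower in FLT-Surgery against G-Surgery (14.4%) and 22 in FLT-Surgery against FLT-Sham (20 lower, 31.7%, 8 past the cut-off). With array weights they were 23 in FLT-Sham against G-Sham (22 higher, beside 38.8% of genes, and 5 past the cut-off), 12 in FLT-Surgery against G-Surgery (11 lower, 28.2%, 1 past it), 2 lower in G-Surgery against G-Sham (4.76%, median -0.092), 30 in FLT-Surgery against FLT-Sham (28 lower, 48.9%, 25 past it) and 24 in the interaction (23 negative, 41.2%). With the slide as a block they were 10 in FLT-Surgery against G-Surgery (2 past the cut-off), 0 in G-Surgery against G-Sham and 5 in FLT-Surgery against FLT-Sham (1 past it).

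Leaving out 1 array at a time gave 1 to 18 members in FLT-Sham against G-Sham (0 to 3 past the cut-off, median 0.29 to 0.72), 0 to 14 in FLT-Surgery against G-Surgery (0 to 2, median -0.50 to -0.19), 0 to 7 in G-Surgery against G-Sham (0 to 2, median -0.15 to 0.15), 3 to 26 in FLT-Surgery against FLT-Sham (0 to 18, median -1.03 to -0.56) and 1 to 23 in the interaction. The replicate numbers did not pair the arrays, since same-numbered deviations correlated between -0.41 and 0.22 in FLT-Surgery against G-Surgery and between -0.13 and 0.34 in G-Surgery against G-Sham, while the Sham groups share only number 4 and the flight groups none. With the replicate block, 1 member was lower (7.23% of genes) and 0 higher (1.97%) at an unadjusted p of 0.05 in FLT-Surgery against G-Surgery. Of the differences of single named members under the alternatives, 230 kept direction and side of that threshold, 87 kept direction but missed it and 3, those under normexp above, changed sign. Members below background on some arrays are limited by signal.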
